A study of Mus musculus with 2 samples.

Results

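The outer fibrocyte markers are 8 genes, Dpt, Gdf10, Dpp4, Pi16, Cd34, Ly6a, Ly6c1 and Fxyd1, that are used to recognise adventitial fibroblasts. They were chosen by name: every non-control probe that carries one of these gene names on the array was taken, which gave 10 probes of 39429 and 19 spots per array of 43020. All 8 genes were well above background in both channels of both arrays, so none was lost to the filter on dim probes, and they are 8 of the 21239 genes tested. The data come from dissected ureters of mouse embryos (NMRI strain) at stage E14.5, hybridised on 2 two-colour arrays. In each array 1 channel held RNA labelled Smad4cKO, from Tbx18(cre/+);Smad4(fl/fl) embryos, and the other held RNA labelled control, from Tbx18(+/+);Smad4(fl/+) embryos. Array 1 paired female embryos with the control in red (AlexaFluor647), and array 2 paired male embryos with the Smad4cKO in red, so that sex and dye changed together. Cre is expressed from the Tbx18 locus, which is active in the mesenchyme around the ureter, and the mutants carry 1 Cre allele of Tbx18 that the controls lack, while the controls carry 1 floxed Smad4 allele. The effect of the Cre allele and that of Smad4 loss cannot be told apart here. How many embryos entered each RNA is not stated, so errors do not describe the spread between litters. The SE and interval of each mean ratio are limma's moderated ones. They combine the spread between a gene's 2 arrays with a variance estimated from all genes (1 residual and 4.89 prior degrees of freedom). They can therefore be smaller or larger than the spread of that gene's own 2 arrays.

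Adventitial fibroblasts form the outermost connective tissue sheath of tubular organs, outside the smooth muscle coat, and carry matrix proteins, secreted signals and a characteristic set of surface proteins. In the ureter they arise, with the smooth muscle cells and the fibroblasts of the lamina propria, from the Tbx18-expressing mesenchyme. SMAD4 is the common partner of the receptor-regulated SMADs of the BMP and TGFB pathways, and SMAD complexes bind DNA at the short motif GTCT and at GC-rich sites such as GGCGCC. Several of the 8 genes are not restricted to fibroblasts: Cd34 and Ly6c1 are also expressed by endothelium, and Cd34 and Ly6a by blood progenitors.

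Each log2 ratio sets the channel that the dye labels assign to the Smad4cKO over the one they assign to the control. The authors' deposited table gives Dpt a signed fold of 3.37 and 1.85 under titles that name Smad4cKO first, which is the opposite direction, and its values are control over Smad4cKO by the dye labels. The targeted gene and the Cre locus were read as a check of the labels. By the dye labels, 1 Smad4 probe gave -0.69 on array 1 and -0.14 on array 2 (limma adjusted p = 1.00), and another gave -0.31 and -0.49 (limma adjusted p = 0.755). Both were lower in the Smad4cKO channel without passing the test, and whether they lie in the deleted part is not known here. Tbx18, of which the mutants carry 1 Cre allele, was higher in the Smad4cKO channel, at 0.07 and 0.81 (mean 0.44 ± 0.20, limma adjusted p = 1.00), and where its probe lies relative to the Cre insertion is not known here. None of these ratios passed the test, so they do not settle which direction is right. By the same labels, 6 of 9 smooth muscle markers were brighter in the Smad4cKO channel by at least 1.5-fold on both arrays. They were not used in this check, and their direction too depends on the labels. Read as the deposited table is titled, all directions below turn round, with the same sizes and p-values.

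Going by the dyes, 2 of the 8 markers had a Smad4cKO signal at least 1.5-fold below the control on both arrays, the matrix gene Dpt and the ligand gene Gdf10, and 0 were brighter. Across all genes tested 0.523% (111) were dimmer and 0.49% (104) brighter by that rule, which has no test. A further 266 genes were past 1.5-fold on both arrays in opposite directions, more than in either shared direction. The other 6 markers, Dpp4, Pi16, Cd34, Ly6a, Ly6c1 and Fxyd1, had mean log2 ratios between -0.05 and 0.28. Limma (Benjamini-Hochberg adjustment over all genes) called 0 of the 8, against 0.00471% of all genes (1 of 21239). At an unadjusted limma p under 0.05 there were 2 of 8, Dpt and Gdf10, against 5.11% of all genes. The median over the 8 markers was 0.05, against 0.0047 over all genes tested.

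**Figure D1:**
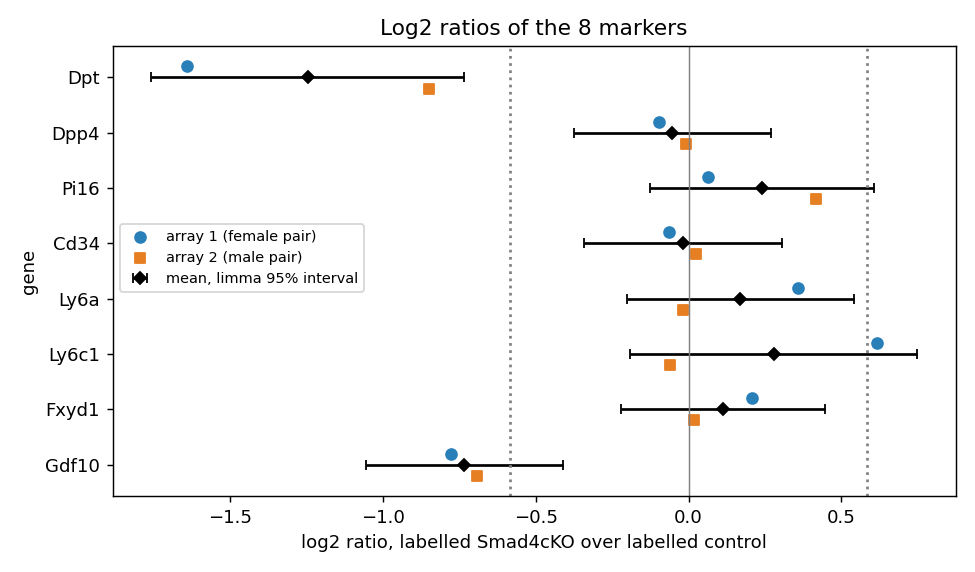
Log2 ratio of each marker on array 1 (circles) and array 2 (squares), with the mean and limma's 95% interval (diamonds and bars); dotted lines mark 1.5-fold in either direction. Dpt and Gdf10 lie left of the dotted line on both arrays, and the intervals of the other 6 genes include 0.

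Dpt encodes dermatopontin, a small secreted matrix protein that binds decorin and promotes collagen fibril assembly. Its probe lies at chr1:166753703-166753762 (mm9) and is printed in 10 spots on each array, all 20 well above background in both channels. On array 1 the mean processed signal over the 10 spots was 349 in the channel labelled Smad4cKO and 1182 in the labelled control. On array 2 the signals were 733 and 1357. The labelled Smad4cKO channel was thus the lower one on both arrays, and no spot of it reached the lowest control spot of its array (highest 363 against lowest 1120 on array 1, and 766 against 1268 on array 2). The mean log2 ratio was -1.25 ± 0.21 (moderated SE, n = 2 arrays, limma adjusted p = 0.181). This is a signal 2.37-fold higher in the labelled control, with a 95% interval of 1.66 to 3.39. Both the SE and the interval are narrower than the 2 arrays of Dpt alone would give, because limma also draws on the variance of all genes. Dpt ranked 18 from the lowest mean ratio among the 21239 genes tested, and Gdf10 ranked 108.

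**Figure D2:**
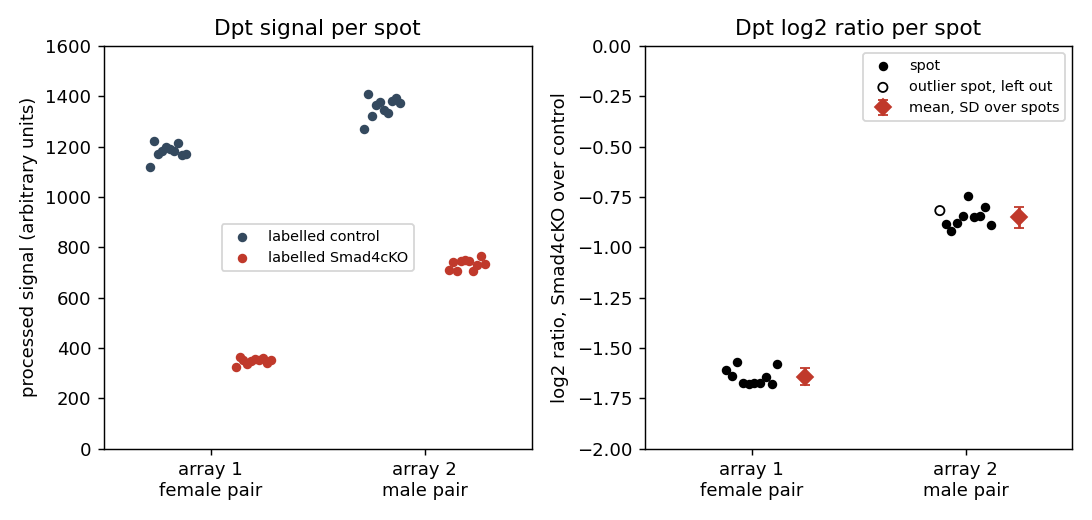
Dpt in each of the 10 spots per array, as processed signal in both channels (left) and as log2 ratio (right, with the mean and SD over spots); the open circle is 1 spot left out as an outlier on array 2. The channels do not overlap on either array, and the log2 ratios of arrays 1 and 2 form separate groups.

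The repeated spots give Dpt a within-array error that the other markers lack. The log2 ratio was -1.64 ± 0.04 (SD, 10 spots) on array 1 and -0.85 ± 0.05 (SD, 9 spots, 1 outlier spot left out) on array 2. Spots ranged from -1.68 to -1.57 on array 1 and from -0.92 to -0.74 on array 2, so the arrays did not overlap and differed by far more than spots of 1 array. Spots of an array share the same RNA, so this spread is that of the measurement and not of embryos. Whether the larger ratio of the female pair goes with sex, dye or the embryos used cannot be told apart.

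The promoter of Dpt is shown because Dpt had the largest ratio of the group, with letters in capitals where GTCT or GGCGCC occurs on either strand. The window runs from 250 bases before to 50 bases after the transcription start and comes from RefSeq (GRCm38.p6, chr1:164796413-164796712, plus strand).
Dpt: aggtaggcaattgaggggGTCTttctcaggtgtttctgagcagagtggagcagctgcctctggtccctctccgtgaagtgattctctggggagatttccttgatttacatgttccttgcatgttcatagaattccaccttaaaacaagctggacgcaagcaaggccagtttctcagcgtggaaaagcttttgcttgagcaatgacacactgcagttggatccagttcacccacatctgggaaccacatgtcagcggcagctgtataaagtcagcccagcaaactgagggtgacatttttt
It holds 1 GTCT and 0 GGCGCC and has a GC content of 48.7%. Across 32851 windows of the same table, 88% hold GTCT on either strand, with a median of 2 per window, and 11.9% hold GGCGCC.

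Gdf10, also called BMP3b, encodes a secreted ligand of the TGFB superfamily. Its probe at chr14:34748161-34748220 (mm9) gave a processed signal of 1423 in the channel labelled Smad4cKO and 2474 in the labelled control on array 1. On array 2 these were 1771 and 2867. The labelled control was brighter on both arrays by nearly the same factor, with log2 ratios of -0.78 and -0.69. The mean was -0.73 ± 0.13 (SE, n = 2 arrays, limma adjusted p = 0.218), or 1.66-fold higher in the labelled control with a 95% interval of 1.33 to 2.08. Unlike Dpt, Gdf10 has 1 spot per array, so its within-array error is not measured. Its promoter window (RefSeq, GRCm38.p6, chr14:33923337-33923636, plus strand) is given for comparison with that of Dpt, with the same capitals.
Gdf10: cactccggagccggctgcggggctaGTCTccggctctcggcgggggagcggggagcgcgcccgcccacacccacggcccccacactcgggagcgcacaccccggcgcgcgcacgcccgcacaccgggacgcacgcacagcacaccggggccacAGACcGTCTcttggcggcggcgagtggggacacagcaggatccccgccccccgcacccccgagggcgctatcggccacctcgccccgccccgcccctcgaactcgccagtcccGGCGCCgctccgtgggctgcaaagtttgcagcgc
It holds 3 GTCT and 1 GGCGCC and has a GC content of 77.3%, against a median of 52.7% over all windows. A window was found for 7 of the 8 markers, all but Ly6a, and these letters did not set the pair apart. Pi16 also holds 1 GGCGCC, and the windows of Pi16, Cd34, Dpp4 and Fxyd1 hold 2 GTCT each, while the 2 windows of Ly6c1 hold 1 and 2. GTCT followed at once by its reverse complement occurs in none of these windows and in 0.213% of all windows. The match of letters is a description and shows no binding.

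Feature Extraction's own error model gave a further measure of the ratio on each array, a p-value per spot that covers the measurement of 1 pair of RNAs and not the spread of embryos. For Dpt it was under 0.01 in 10 of 10 spots on both arrays, from 6.41e-12 to 2.90e-11 on array 1 and from 2.94e-05 to 1.28e-04 on array 2. For Gdf10 it was 2.32e-04 and 0.00114. Among the other members only Ly6c1 on array 1 was under 0.01, at both its probes (0.00303 and 0.00114). The share of all spots under 0.01 was 4.45% on array 1 and 3.4% on array 2.

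**Figure D3:**
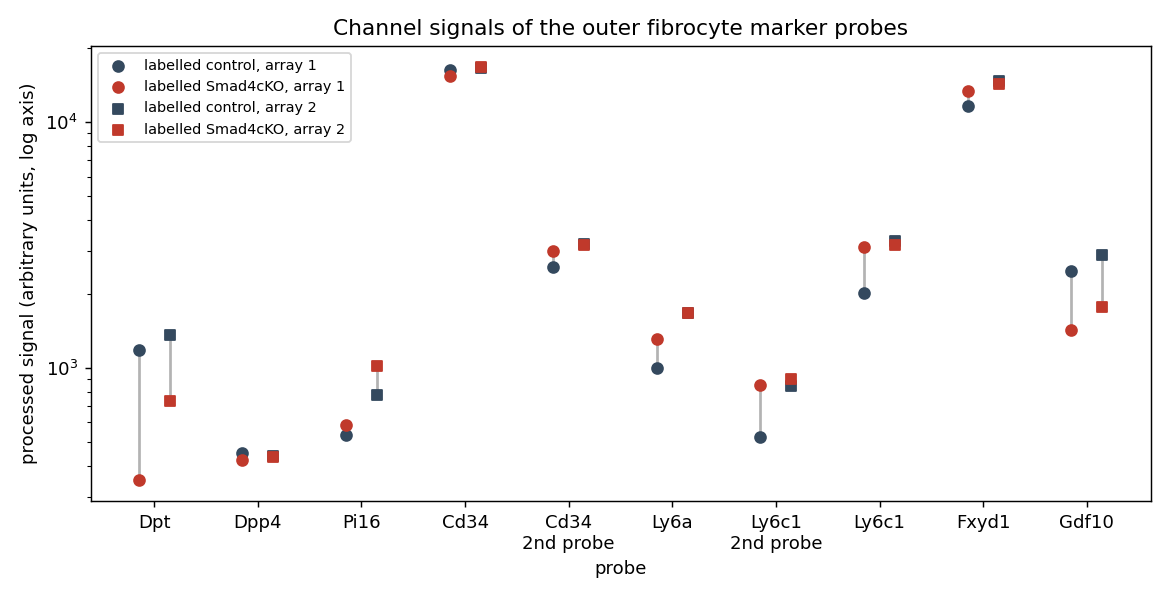
Processed signal (log axis) of the 10 marker probes in the channels labelled control and Smad4cKO, with array 1 as circles and array 2 as squares, and grey lines joining the channels of an array. Dpt and Gdf10 have the control above the Smad4cKO on both arrays, whereas both Ly6c1 probes are apart on array 1 only.

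Among the surface proteins, Dpp4 (CD26), a membrane-bound serine protease that removes dipeptides from the ends of peptides, had nearly equal channels. Its probe (chr2:62170062-62170121, mm9) gave 422 against 452 on array 1 and 435 against 437 on array 2, labelled Smad4cKO first. The log2 ratio was -0.05 ± 0.13 (SE, n = 2), with a 95% interval of -0.38 to 0.27. The interval includes 0 and stays within 1.5-fold in both directions.

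Pi16, a secreted or membrane-anchored protein of the CAP superfamily that is a marker of adventitial fibroblasts in many organs, had the higher signal in the Smad4cKO channel of both arrays. The signals were 588 against 533 on array 1 and 1018 against 776 on array 2, at chr17:29465784-29465843 (mm9). The log2 ratio of 0.24 ± 0.15 (SE, n = 2, limma adjusted p = 1.00), with an interval of -0.13 to 0.61, did not pass the test. With median centring in place of loess the ratio on array 1 was -0.01, so its sign there depends on the normalization. The mean of Pi16 thus lay on the other side of 0 from Dpt and Gdf10, as did those of Ly6a, Ly6c1 and Fxyd1. With the processing as reported its interval did not overlap theirs, which also held for Dpp4, Cd34, Ly6a, Ly6c1 and Fxyd1. With median centring the intervals did overlap (Pi16 -0.39 to 0.89, Gdf10 -1.28 to -0.18, Dpt -2.14 to -0.34). The difference between genes was not tested.

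Cd34, a sialomucin of fibroblasts, endothelium and blood progenitors, was bright and had near-equal channels. Its brighter probe (chr1:196787392-196787451, mm9) gave 15423 against 16293 on array 1 and 16787 against 16583 on array 2, with a log2 ratio of -0.02 ± 0.13 (SE, n = 2, 95% interval -0.34 to 0.30). A second Cd34 probe at chr1:196785280-196785339 gave 2994 against 2568 and 3156 against 3190, or 0.23 and -0.01. The probes of Cd34 thus differed in sign on both arrays, with ratios near 0.

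Ly6a (Sca-1) and Ly6c1 (Ly-6C) encode small surface proteins held by a lipid anchor, and both lie on chromosome 15 among other genes of the LY6 family. Ly6a (chr15:74825553-74825612, mm9) gave 1305 against 999.9 on array 1 and 1675 against 1668 on array 2. Ly6c1 (chr15:74875495-74875554) gave 3104 against 2008 on array 1 and 3147 against 3289 on array 2. Both were brighter in the channel labelled Smad4cKO in the female pair (0.36 and 0.62) and near 0 in the male pair (-0.02 and -0.06). The means were 0.17 ± 0.15 and 0.28 ± 0.19 (SE, n = 2, limma adjusted p = 1.00 for each), with intervals of -0.20 to 0.54 and -0.19 to 0.75. The second Ly6c1 probe (chr15:74877785-74877844) gave 852 against 525 on array 1 and 898 against 842 on array 2, or 0.65 and 0.04, so that the probes of Ly6c1 agreed on the array where the channels differed.

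The second probes of Ly6c1 and Cd34 are printed because these are the 2 members measured at more than 1 place, in lower case and as the scanner files give them.
Ly6c1 second probe: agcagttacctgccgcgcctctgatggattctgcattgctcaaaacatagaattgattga
Cd34 second probe: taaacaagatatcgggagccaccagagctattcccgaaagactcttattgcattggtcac
Since LY6 genes are close relatives, each member's probe was set against all other probes of the array. The search began from short exact matches on the same strand and scored the whole overlap of the probes. For none of the 10 did it find another probe with an overlap of at least 30 bases at 80% identity. Shorter or more broken likeness would have been missed. No probe on the array was found under the name Ly6c2, and whether transcripts of such relatives bind these probes was not tested. The GC content of the 10 probes ran from 35% to 55%, around the median of 41.7% over all probes.

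Fxyd1 encodes phospholemman, a small membrane protein that regulates the sodium pump. It gave 13423 against 11614 on array 1 and 14269 against 14666 on array 2 at chr7:31836699-31836758 (mm9). The log2 ratio was 0.11 ± 0.14 (SE, n = 2), with 0.21 on array 1 and 0.02 on array 2 and an interval of -0.22 to 0.45. From processed signals the array 2 value was -0.04, and with median centring the arrays gave -0.19 and 0.44, so the direction of Fxyd1 on each array rests on the normalization.

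In direction alone, 3 of the 8 markers had the lower signal in the Smad4cKO channel of both arrays (Dpt, Gdf10 and Dpp4), against 19.8% of all genes tested. The array 2 value of Dpp4 was -0.0083, and it turned to 0.06 with median centring and to 0.0070 from the deposited values, where the count was 2 of 8. Another 2, Pi16 and Fxyd1, were brighter on both, against 19.9%. The remaining 3 had opposite signs on the arrays, against 60.3% of all genes. Of these, Ly6a and Ly6c1 were brighter in green on both arrays and Cd34 in red. The array 2 values of Ly6a and Ly6c1 were -0.02 and -0.06, and turned to 0.10 and 0.09 with median centring. The 8 markers did not share 1 direction.

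**Figure D4:**
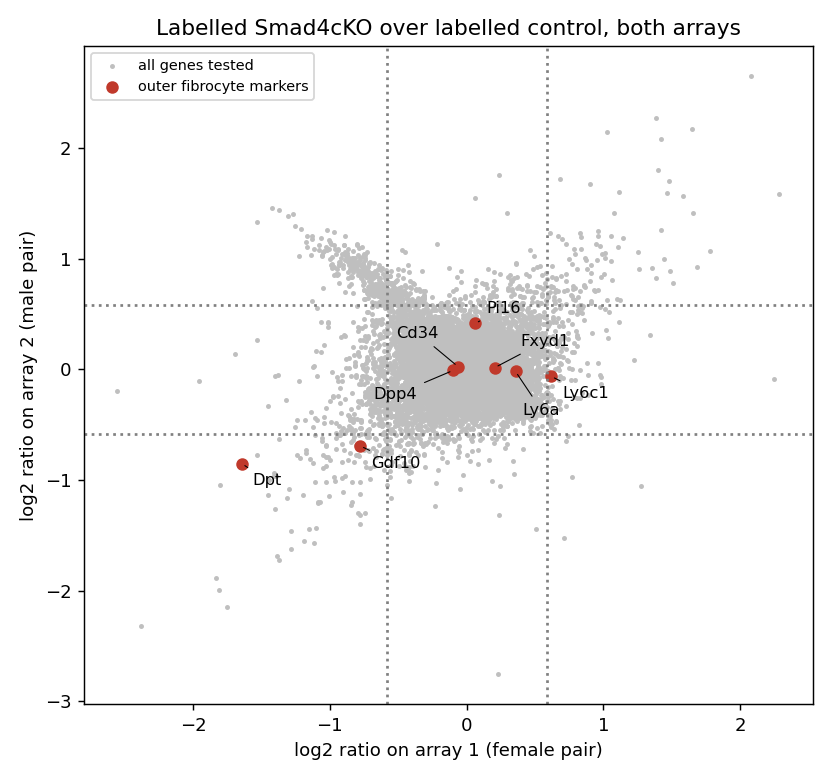
Log2 ratio on array 1 against array 2 for all 21239 genes tested (grey) and the 8 markers (red); dotted lines mark 1.5-fold. Dpt and Gdf10 lie in the lower left corner past both lines, and the other markers lie within the central cloud, with Ly6c1 just past 1.5-fold on array 1 alone.

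The markers were next set beside other genes of fibroblasts. Among 24 further adventitial and general fibroblast genes, all tested, 1 was dimmer and 1 brighter by the 1.5-fold rule and 0 passed limma (7 at an unadjusted p under 0.05). Igfbp6, a secreted binding protein for insulin-like growth factors, gave a signal of 1260 against 2957 on array 1 and 2192 against 3914 on array 2, or -1.24 and -0.77 (mean -1.01 ± 0.16, limma adjusted p = 0.178). Its ratios, like those of Dpt, were larger in size in the female pair. Sfrp2, a secreted WNT modulator, was brighter in the channel labelled Smad4cKO, at 0.61 and 1.23. The scavenger receptor gene Scara5 (0.51 and 0.75) and the ectonucleotidase gene Entpd2 (-0.46 and -0.73) had 1 sign each on both arrays without passing the rule. The median of the list was 0.02, with 5 genes brighter on both arrays (20.8%), 4 dimmer (16.7%) and 15 of opposite sign (62.5%). These shares of direction lie near those of all genes tested (19.9%, 19.8% and 60.3%). The other counts do not: 7 of 24 at an unadjusted limma p under 0.05 stand against 5.11% of all genes. By the 1.5-fold rule, 1 dimmer and 1 brighter of 24 stand against 0.523% and 0.49%.

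Among 14 stromal genes of the ureter and kidney, 2 were dimmer by the rule, against 0.523% of all genes, and 0 brighter. Limma called 0 of them (4 at an unadjusted p under 0.05, against 5.11% of all genes). Aldh1a2, which makes retinoic acid, gave -0.75 and -1.30, and the calmodulin-binding protein gene Pcp4 gave -0.96 and -0.62. The related dehydrogenase gene Aldh1a3 (-0.69 and -0.35) and the transcription factor gene Tcf21 (0.92 and 0.33) were past 1.5-fold on array 1 only. The median of this list was 0.02, and -0.01 from processed signals.

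Genes related to each marker by family or partnership held few of 1 sign and large size. Limma called 0 in any of the 17 lists of related genes and cell type markers (between 0 and 7 per list at an unadjusted p under 0.05). Other settings called some: of the 9 smooth muscle markers, limma called 6 from processed signals, 6 with its trend and robust options, 5 from the deposited values and 3 with normexp offset 10. Of the 12 nerve and glia markers it called 4 from processed signals and 7 with the trend and robust options. In each list of related genes the count was between 0 and 3 in every setting run. Partners of dermatopontin, the small proteoglycans and fibril proteins, had 0 of 10 tested genes past the 1.5-fold rule, and 8 of them had opposite signs on the arrays. Of those, 7 (70% of the list) were brighter in red on both arrays, against 28.6% of all genes, among them decorin (Dcn, -0.45 and 1.06) and the collagen gene Col1a1 (-1.37 and 1.44), named after their values were seen. Only Tgfb1 (0.17 and 0.33) and biglycan (Bgn, 0.18 and 0.10) kept 1 sign. Dpt, brighter in red on array 1 and in green on array 2, did not have this pattern.

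For Gdf10, the 10 tested relatives, receptors and receptor-regulated SMADs held 0 past the rule. Bmp3, its closest relative, gave -0.18 and -0.06, and Tgfbr3, the co-receptor betaglycan, gave 0.33 and 0.71. Smad3 (-0.21 ± 0.13), the activin receptor gene Acvr1b (0.18 ± 0.13) and the co-receptor gene Tdgf1 (-0.10 ± 0.13) did not pass the test. The list's median was -0.05.

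Of the prolyl peptidases related to Dpp4, 0 of 9 passed the rule. Fap, the fibroblast activation protein and closest relative of Dpp4, had the lower Smad4cKO signal on both arrays, at -0.28 and -0.66 (mean -0.47 ± 0.15, limma adjusted p = 0.666), and Dpp6 at -0.48 and -0.57. Prcp (0.26 ± 0.14) and Dpp8 (-0.17 ± 0.13) had smaller ratios. The median was -0.07.

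Of the CAP superfamily, 6 of 10 genes were tested and 0 passed the rule. Pi15, named for its likeness to Pi16, gave 0.23 and 0.47, while Glipr2 gave -0.05 and -0.33 and Glipr1 -0.05 and -0.20. The sialomucins related to Cd34 had opposite signs on the arrays, with Podxl at -0.10 and 0.23 and Podxl2 at -0.06 and 0.19. Podxl, like Cd34, is expressed by endothelium.

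The LY6 family held 19 tested genes besides Ly6a and Ly6c1, 0 of them past the rule. Lypd6, which encodes a LY6 protein that enhances WNT signalling, had the largest ratio of 1 sign, at -0.71 and -0.47, followed by Lynx1 (0.35 and 0.22), Lypd1 (-0.40 and -0.18) and Lypd2 (0.33 and 0.07). Of the 19, 10 were brighter in green on both arrays, against 31.7% of all genes. Ly6e (0.17 and -0.12) was among these 10, and with the processing as reported Ly6a and Ly6c1 had the same pattern. Ly6c2 was not found by name on the array.

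Fxyd1 acts on the sodium pump, whose subunits and other FXYD proteins were listed with it. Of 13 genes 0 passed the rule. Fxyd6 gave 0.45 and 0.24, Fxyd5 gave 0.14 and -0.25, and the pump genes Atp1b1 (-0.30 ± 0.16) and Atp1a4 (-0.05 ± 0.13) were dimmer on both arrays without passing the test. The median of the list was 0.04.

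By distance between the pairs of log2 ratios on the 2 arrays, the genes most like Dpt were Leo1, a component of the PAF1 complex of transcription (distance 0.135), the collagen gene Col8a1 (0.247) and the WNT agonist gene Rspo1 (0.251). For Gdf10 they were Gm2818 (0.0176), the secreted lymphatic growth regulator gene Ccbe1 (0.0300) and Tafa1 (0.0304). With 2 values per gene this likeness says only that the ratios are similar.

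Levels of other cell types were read beside the markers, since the ureter RNA is a mixture and fewer cells of a type cannot be told apart from less RNA per cell. Smooth muscle and urothelial markers were measured, with Acta2 at 12774 against 6363 on array 1 and 21777 against 4811 on array 2, and Upk1a at 2657 against 2533 and 2812 against 3232. By the rule, 6 of 9 tested smooth muscle markers were brighter in the channel labelled Smad4cKO and 0 dimmer. The shares of all genes were 0.49% and 0.523%. These 6 thus had the direction opposite to Dpt and Gdf10. Endothelial markers, tested in 17 of 18, held 0 past the rule, with a median of 0.12. On both arrays 8 were brighter (47.1%, against 19.9% of all genes) and 2 dimmer (11.8%, against 19.8%). Their summed signal was 94406 against 83225 on array 1 and 98584 against 93620 on array 2. Of the 13 leukocyte and blood markers, 6 were brighter on both arrays (46.2%, against 19.9% of all genes). Only 1 was dimmer on both (7.69%, against 19.8%), and the median was 0.11. Their sums, which bright genes weigh most, were 21344 against 18480 on array 1 and 23064 against 23254 on array 2. Erg was not well above background, no tested marker was at 0, and Pecam1 gave 0.26 and -0.10, Ptprc 0.27 and 0.10. Their part in the ratios of Cd34, Ly6a and Ly6c1 was not tested.

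Mesothelial cells cover organs next to the adventitia. Of 9 tested mesothelial markers 3 were dimmer on both arrays, 0 were brighter on both and 6 had opposite signs, with a median of -0.02. By the rule 1 was dimmer, Wt1 (-1.14 and -0.81), while Nkain4 gave -0.43 and -0.90 and Muc16 -0.91 and -0.11. Among those of opposite sign were Upk3b (-1.06 and 0.16), Krt19 (0.53 and -0.20) and Msln (0.16 and -0.10), named after their values were seen. The summed signals of the mesothelial markers went in opposite directions, 77809 against 62868 on array 1 and 68600 against 92298 on array 2. Most of these sums came from the keratin genes Krt8 and Krt19, so they say little of the other markers. Krt8 gave 34752 against 23298 on array 1 and 28632 against 38046 on array 2. Krt19 gave 28195 against 19070 and 23855 against 29305. Of 12 nerve and glia markers 3 were dimmer by the rule and 10 dimmer on both arrays, led by Prph (-1.03 and -0.69), with sums of 10249 against 14180 and 11658 against 13790. Of 6 skeletal muscle and fat markers 1 was dimmer by the rule, Myh3 (-0.71 and -0.73). On both arrays 5 of these 6 were dimmer and 0 brighter, and 1 had opposite signs. Of 10 kidney markers 1 was dimmer by the rule, Gdnf (-1.75 and -2.14). Wt1, Prph, Myh3 and Gdnf are named because they were dimmer by the rule, so the direction they share with Dpt and Gdf10 follows from that choice. Other nerve and glia markers, 2 in number, were brighter on both arrays, S100b (0.69 and 0.58) and Erbb3 (0.39 and 0.09). Of the kidney markers 5 were dimmer, 2 brighter and 3 of opposite sign. The share of all genes dimmer on both arrays was 19.8%, and 0.523% were dimmer by the rule. The part of these cell types in the ratios of Dpt and Gdf10 was not tested. Urothelial markers held 0 of 10 past the rule.

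The size of the ratios of Dpt and Gdf10 varied little with the processing, while limma's call did. The mean log2 ratio of Dpt lay between -1.33 and -1.24 and that of Gdf10 between -0.75 and -0.73 over 11 settings. Dpt passed limma's threshold from processed signals (adjusted p = 0.00834), from the authors' deposited values (0.0383) and with limma's trend and robust options (1.98e-09), and missed it in the other settings, with the highest adjusted p at 1.00 under median centring. Gdf10 passed with the trend and robust options only (8.71e-05), and gave 0.0567 from processed signals and 0.106 from the deposited values. With median centring its array 2 value was -0.56, short of 1.5-fold, and 1 marker, Dpt, was left past the rule.

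**Figure D5:**
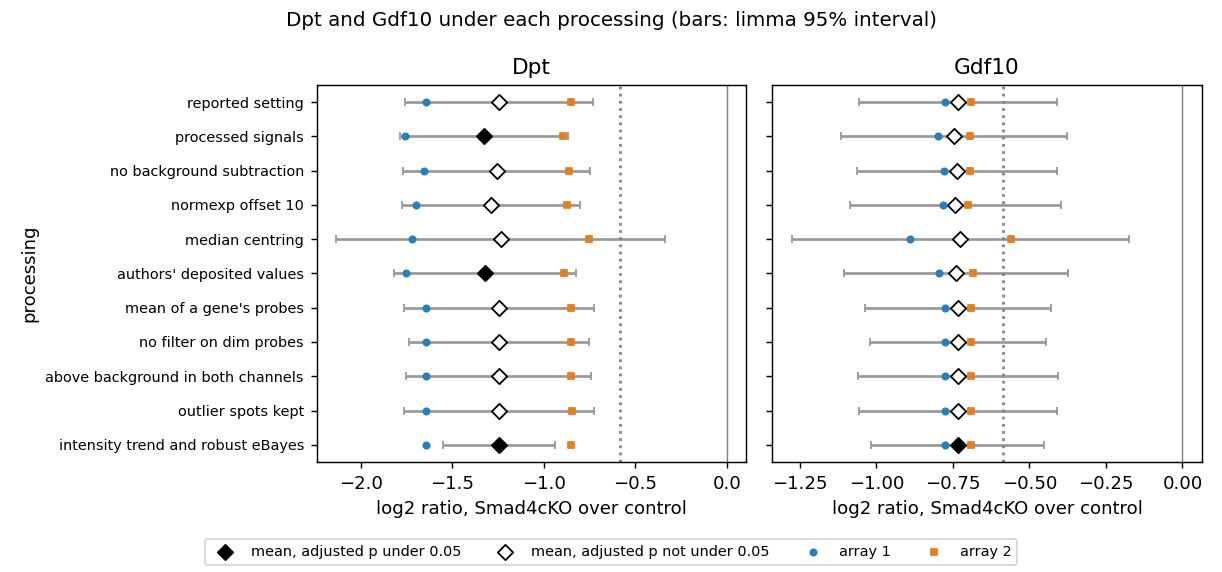
Log2 ratio of Dpt (left) and Gdf10 (right) under each of 11 processing settings, with array 1 (circles), array 2 (squares), the mean (diamonds, filled where limma's adjusted p was under 0.05) and limma's 95% interval (bars); the dotted line marks 1.5-fold. All means and intervals lie below 0, and the filled diamonds are 3 for Dpt and 1 for Gdf10.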

How the data were processed

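RNA from ureters was measured on 2 two-colour arrays, with 200 ng of total RNA per channel. The submitters' processing notes name Agilent Feature Extraction 10.7.3.1. The deposited scanner files hold an intensity per spot and channel, raw and processed (background-subtracted and dye-normalized by LOWESS, per the file headers). Per the file headers they also hold the log10 ratio of red over green and its p-value. A further deposited file gives signed fold ratios of the authors, whose scale and direction are not stated. Compared with the processed signals, they follow red over green for array 1 and the reverse for array 2, and each column has a median of 1. Both arrays share 1 slide and 1 scan.

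Mean signals were corrected with normexp (offset 50) and normalized by loess (limma 3.58.1, statmod 1.5.0, R 4.3.3), with 1377 control spots at weight 0. Outlier spots were left out (237 and 221), and spots of a probe averaged. Probes entered the test if either the Smad4cKO or the control was well above background in both hybridisations, and each gene was represented by its brightest such probe. Of 39429 probes, 26412 were named through RefSeq accessions (GRCm38.p6). Between 68.3% and 70.3% of spots per channel were well above background, with a median signal over background from 8.79 to 10.8 and 0 saturated spots. The number of arrays limits the precision. The log2 ratios were tested against 0 with lmFit and eBayes (two-sided, threshold 0.05, 1 residual and 4.89 prior degrees of freedom), after a check on simulated data. A sign permutation over 2 arrays allows no p below 0.5. Per list, up to 4 genes of 1 sign on both arrays with the largest smaller ratio were named, with set relatives in any case; 1 gene so chosen is not reported here. The markers and lists were chosen with earlier results of these data known. Alternatives changed the background correction, normalization, filter, probe choice, outlier spots and empirical Bayes step.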

Additional observations from a re-analysis of the deposited data

Results flagged for a closer look

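With the processing as reported, Cd34, Ly6a and Ly6c1 had opposite directions in the female pair (array 1) and the male pair (array 2). Cd34 gave a log2 ratio of -0.06 in the female pair and 0.03 in the male pair. Ly6a gave 0.36 and -0.02, and Ly6c1 gave 0.62 and -0.06. In other settings the signs of Ly6a were the same on both arrays. These were processed signals (0.38 and 0.0065), the deposited values (0.39 and 0.018) and median centring (0.26 and 0.10). Ly6c1 had 1 sign with median centring (0.49 and 0.09) and at its second probe (0.65 and 0.04). Each pair is 1 array, so the difference was not tested, and the values of Cd34 and the male pair values of Ly6a and Ly6c1 lie near 0.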

How the results depend on the processing

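The direction of Dpt, Gdf10, Dpp4, Pi16 and Fxyd1 was the same in all 11 settings for the mean log2 ratio, and on either array alone with the processing as reported. On single arrays it turned in other settings, for Fxyd1 (array 1 with median centring, array 2 from processed signals and deposited values), Pi16 (array 1 with median centring) and Dpp4 (array 2 with median centring and from deposited values). That of Cd34 turned to 0.046 when its probes were averaged, 0.11 at its second probe and, without replicate 1, 0.026, against -0.062 without replicate 2. Without replicate 1 Ly6a turned to -0.018 and Ly6c1 to -0.062, against 0.36 and 0.62 without replicate 2. The number of markers past the 1.5-fold rule was 2 in all settings but median centring (1) and a 2-fold threshold (0). With 1 array left, the rule held for 2 markers without replicate 1 and 3 without replicate 2.

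Over all genes, limma called 1 gene as reported, 303 from processed signals, 150 from the deposited values, 66 with normexp offset 10, 705 with limma's trend and robust options, 4 among probes above background in both channels, and 0 after centring on the median, averaging probes per gene or keeping outlier spots. The 1.5-fold rule held for 215 genes, 383 from processed signals and 361 from the deposited values, and 46 at 2-fold. It held for between 877 and 940 genes on 1 array alone. Genes past 1.5-fold on both arrays in opposite directions numbered 266 as reported and 180 from processed signals. There were 182 of them from the deposited values and 1440 with median centring. The cause of these differences was not tested. Each array holds its own pair, so the test of the ratios is already paired and no separate paired analysis was run. A single array leaves no residual degree of freedom for a test.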
